A study of Mus musculus with 14 samples.

Results

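The DNA damage response genes Rnf168, Rnf8, Mdc1, Trp53bp1, Rad51d, Rad51c, Top3a, Wdr76, Atm and Brca1 were followed in full-grown, germinal vesicle-intact mouse oocytes that lacked AGO2 cleavage activity, AGO2 or DICER. These 10 genes of the 20638 genes in the count files were chosen by name. Of them, Rnf168, Mdc1, Rad51d, Top3a and Wdr76 were selected because they had responded differently to Ago2 and to Dicer loss in these same libraries, so their effects against controls, and the differences between those effects, are given as a description with no test. The other 5 genes, Rnf8, Trp53bp1, Rad51c, Atm and Brca1, belong to the same pathway and were tested.

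A DNA double-strand break is marked by the kinase ATM, which phosphorylates the histone variant H2AX. MDC1 reads that mark and recruits the ubiquitin ligase RNF8, whose signal is extended on chromatin by the ligase RNF168, and 53BP1 (encoded by Trp53bp1) and BRCA1 are then drawn to the break, where they favour end joining and homologous recombination, respectively. RAD51C and RAD51D act in homologous recombination, and the topoisomerase TOP3A untangles recombination intermediates with BLM, RMI1 and RMI2. The oocyte stays for a long time in meiotic prophase before it resumes meiosis, relying on stored mRNA once it is full grown, and endogenous siRNAs made by DICER guide AGO2 to cleave complementary mRNAs there.

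Each library held 20 oocytes freed of cumulus cells, collected from females aged 4 to 6 weeks that had received 5 IU of eCG, a gonadotropin that drives follicle growth, 48 h earlier, on a mixed and mostly C57BL6 background. Oocytes from 3 or 4 animals were pooled per library. In the Ago2 series, Ago2 fl/fl oocytes (3 libraries) had floxed alleles and an active AGO2. Ago2 ADH oocytes (3 libraries) came from Ago2 fl/ADH females with a Cre transgene under the oocyte-specific Zp3 promoter, so that after deletion of the floxed allele they had only the allele whose product binds small RNAs but cannot cleave. Ago2 null oocytes (2 libraries) came from the same crosses and had no functional Ago2 allele after Cre. In the Dicer series, Dicer WT oocytes (3 libraries) were compared with Dicer KO oocytes (3 libraries), which carried an oocyte-specific Dicer deletion. Message or protein made before Cre acts can persist in such oocytes. The p-values below measure the spread between these pools. Levels are relative to the other mRNA counted in a library. A change in the number of intact oocytes or in the total mRNA per oocyte is therefore not seen.

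The libraries held between 29380403 and 58285057 counts on transcripts, and levels are given as normalized CPM, counts scaled to the size of each library, where 3 counts corresponded to at most 0.102 CPM. Ago2 mRNA fell by 0.87 in Ago2 ADH and by 1.95 in Ago2 null oocytes on the log2 scale, in the direction of the labels, whereas Dicer1 counts were 1.26 higher in Dicer KO oocytes, a count over the whole transcript that does not show the deleted exons. On the same scale, Ago2 was also 0.56 lower in Dicer KO oocytes. Dicer1 was also 0.67 and 0.59 higher in Ago2 ADH and Ago2 null oocytes. The 13 oocyte markers summed to between 18823.7 and 21371.8 CPM in the Ago2 series and between 13684.7 and 14552.7 CPM in the Dicer series. The 15 granulosa and cumulus markers summed to between 59.5 and 106 CPM, mostly Cyp19a1 and Nr5a2, with Amh at most 0.278 and Foxl2 at most 0.142 CPM, and they were lowest in Ago2 null oocytes (59.5 to 65.0 CPM) and highest in Dicer WT oocytes (98.4 to 106 CPM). Records with several alignments, which were not counted, made up 33.2% to 34.6% of the records in Ago2 fl/fl, 57.0% to 58.3% in both Ago2 mutants, 25.6% to 31.5% in Dicer WT and 44.4% to 49.5% in Dicer KO libraries. That share moved with genotype. The paper gives different alignment settings for reads of different lengths and does not say which libraries had which length. The part of the share and of these settings in the results below was not tested. By the read file names, the libraries of an Ago2 genotype shared a lane that held no other Ago2 genotype, and effects of lane and of genotype cannot be told apart in that series.

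All 10 genes were represented by 1 RefSeq transcript each. On the GRCm38 assembly, Rnf168 (NM_027355) lies on chromosome 16 at 32277461-32301442 (plus strand), Mdc1 (NM_001010833) on chromosome 17 at 35841495-35859670 (plus) and Rnf8 (NM_021419) on the same chromosome at 29614789-29641664 (plus). Chromosome 2 holds Trp53bp1 (NM_013735) at 121194835-121296354 (minus) and Wdr76 (NM_030234) at 121506723-121544860 (plus). Chromosome 11 holds Top3a (NM_009410) at 60738209-60777365, Rad51d (NM_011235) at 82871960-82890624, Rad51c (NM_053269) at 87376645-87404954 and Brca1 (NM_009764) at 101488761-101551955, all on the minus strand. Atm (NM_007499) lies on chromosome 9 at 53437122-53536828 (minus). Counting covered exons without regard to strand. Exons of Trp53bp1 overlap those of Tubgcp4 on the other strand by up to 1873 bases, and reads of these genes cannot be told apart there, although Tubgcp4 itself had only between 2.08 and 7.15 CPM. Exons of Rnf8 overlap those of Gm28043 on the same strand by up to 744 bases, and Gm28043 was not counted as a gene of its own.

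The promoters of 3 genes that stood together above controls in Dicer KO oocytes, and of Rnf8, which acts between MDC1 and RNF168 and was not called in any comparison, are shown so that the sequence upstream of each start site can be compared. They are the 250 bases before the RefSeq start site (GRCm38.p6), at chr16:32277211-32277460 for Rnf168, chr2:121506473-121506722 for Wdr76, chr17:35841248-35841497 for Mdc1 and chr17:29614539-29614788 for Rnf8, all on the plus strand and written 5′ to 3′, with the motif matches in capitals. The windows follow the start sites of the promoter table, and that of Mdc1 ends past the transcript start given above.
Rnf168: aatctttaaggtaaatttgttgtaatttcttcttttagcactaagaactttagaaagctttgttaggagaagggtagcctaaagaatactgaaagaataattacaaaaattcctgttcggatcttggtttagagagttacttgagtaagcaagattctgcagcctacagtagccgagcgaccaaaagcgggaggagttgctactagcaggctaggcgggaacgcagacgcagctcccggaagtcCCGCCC
Wdr76: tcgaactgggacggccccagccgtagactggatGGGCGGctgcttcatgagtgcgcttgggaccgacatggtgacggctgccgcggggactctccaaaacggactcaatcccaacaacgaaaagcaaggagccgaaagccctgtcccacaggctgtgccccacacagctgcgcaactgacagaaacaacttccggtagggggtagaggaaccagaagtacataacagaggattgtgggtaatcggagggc
Mdc1: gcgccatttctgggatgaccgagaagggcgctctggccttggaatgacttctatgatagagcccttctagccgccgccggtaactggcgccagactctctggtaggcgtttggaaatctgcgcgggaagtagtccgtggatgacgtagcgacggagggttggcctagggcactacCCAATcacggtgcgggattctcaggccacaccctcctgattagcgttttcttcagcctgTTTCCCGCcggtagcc
Rnf8: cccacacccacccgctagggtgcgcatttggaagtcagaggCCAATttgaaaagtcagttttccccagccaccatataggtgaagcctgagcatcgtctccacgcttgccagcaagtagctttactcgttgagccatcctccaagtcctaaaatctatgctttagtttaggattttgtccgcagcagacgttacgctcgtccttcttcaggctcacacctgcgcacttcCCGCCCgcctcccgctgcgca

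The motifs searched on both strands were CCAAT, which is read by NF-Y, the GC box GGGCGG, the E2F sites TTTGGCGC and TTTCCCGC, part of the NRF1 site (GCGCATGC), the E-box CACGTG and the TATA box, searched as TATAAA. Among 32851 promoter windows of the same length they were found in 33.9%, 32.7%, 0.417%, 0.895%, 2.26%, 6.02% and 12.4%, respectively. Rnf168 and Wdr76 each held 1 GGGCGG match and no other motif of the list in the windows shown. A second RefSeq window of Wdr76, at chr2:121508243-121508492, held 1 TATAAA match and no GC box, with a GC content of 41.6% and 1 CpG dinucleotide. Mdc1 held a CCAAT match and the E2F site TTTCCCGC but no GC box, and Rnf8 held a CCAAT match and a GC box. The GC content was 43.6% for Rnf168, 58.8% for Wdr76, 59.2% for Mdc1 and 54.4% for Rnf8, against a median of 52.4% over all windows, and the windows held 9, 15, 19 and 14 CpG dinucleotides against a median of 6. No motif was held by all 3 of the windows shown for Rnf168, Wdr76 and Mdc1. These matches describe letters in a window and not bound sites.

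Rnf168, the ligase that extends the ubiquitin mark around a break, was lower in both Ago2 mutants and higher in Dicer KO oocytes than in their controls. Its level was 188, 193 and 198 CPM in the 3 Ago2 fl/fl libraries, 121, 131 and 127 CPM in Ago2 ADH and 126 and 133 CPM in Ago2 null. It was 163, 164 and 157 CPM in Dicer WT and 484, 457 and 416 CPM in Dicer KO. Both Ago2 mutants thus lay below every control library, and all Dicer KO libraries lay above all others. On the log2 scale Rnf168 changed by -0.57 (SE 0.05) in Ago2 ADH and -0.54 (SE 0.06) in Ago2 null oocytes, but 1.49 (SE 0.07) in Dicer KO oocytes, a 2.82-fold higher level. The Ago2 ADH effect minus the Dicer KO effect was -2.11 (SE 0.08), and the Ago2 null effect minus the Dicer KO effect was -2.06 (SE 0.09).

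Mdc1, the adaptor that binds phosphorylated H2AX upstream of RNF8 and RNF168, stood apart in Dicer KO oocytes alone. It had 77.5, 82.4 and 75.2 CPM in Ago2 fl/fl, 69.4, 63.9 and 76.7 CPM in Ago2 ADH and 76.3 and 63.0 CPM in Ago2 null libraries. In the Dicer series it had 72.6, 76.4 and 76.8 CPM in WT and 166, 154 and 165 CPM in KO libraries. The ranges of the 4 groups other than Dicer KO overlapped from neighbour to neighbour, and all 3 Dicer KO libraries were above them. Its log2 fold change was -0.12 (SE 0.07) in Ago2 ADH, -0.13 (SE 0.08) in Ago2 null and 1.11 (SE 0.06) in Dicer KO oocytes, so the effects differed by -1.28 (SE 0.09) and -1.27 (SE 0.10). Leaving out Ago2 null replicate 2 moved the Ago2 null value to -0.0037, and leaving out Ago2 null replicate 1 or Ago2 ADH replicate 3 moved the corresponding value to -0.27 or -0.20.

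Wdr76 encodes a WD-repeat protein found at sites of DNA damage, associated with the CUL4-DDB1 ubiquitin ligase and the chromatin remodeler HELLS. Its levels followed those of Rnf168, at 163, 152 and 161 CPM in Ago2 fl/fl, 109, 110 and 110 CPM in Ago2 ADH and 112 and 101 CPM in Ago2 null oocytes. They were 184, 177 and 178 CPM in Dicer WT and 392, 373 and 376 CPM in Dicer KO oocytes. The Ago2 mutants overlapped each other and lay below both control groups, and the Dicer KO libraries were the highest. The log2 fold change was -0.48 (SE 0.05) in Ago2 ADH, -0.54 (SE 0.06) in Ago2 null and 1.09 (SE 0.06) in Dicer KO oocytes, with differences of effects of -1.62 (SE 0.07) and -1.66 (SE 0.09).

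Rad51d, a member of the BCDX2 complex, differed from the other chosen genes in that its low group was a control. It had 56.9, 62.5 and 61.6 CPM in Ago2 fl/fl, 59.1, 58.8 and 51.8 CPM in Ago2 ADH and 59.3 and 51.9 CPM in Ago2 null oocytes. It had only 22.8, 21.2 and 20.7 CPM in Dicer WT, and 51.8, 53.8 and 56.4 CPM in Dicer KO oocytes. The Dicer WT libraries lay below all others, and the ranges of the remaining 4 groups overlapped from neighbour to neighbour. Its log2 fold change was thus 1.33 (SE 0.08) in Dicer KO, -0.05 (SE 0.07) in Ago2 ADH and -0.08 (SE 0.08) in Ago2 null oocytes, with differences of effects of -1.43 (SE 0.10) and -1.44 (SE 0.11). The sign of the small Ago2 values turned without Ago2 ADH replicate 3 (0.0034) or without Ago2 null replicate 2 (0.0086).

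Top3a, the type IA topoisomerase of the BLM dissolvasome, was higher in both Ago2 mutants and lower in Dicer KO oocytes, the reverse of Rnf168 and Wdr76. Mdc1 and Rad51d overlapped their controls in the Ago2 mutants and were opposite to Top3a in Dicer KO oocytes only. Top3a had 35.8, 39.2 and 39.1 CPM in Ago2 fl/fl, 79.3, 76.5 and 78.0 CPM in Ago2 ADH and 66.8 and 62.6 CPM in Ago2 null oocytes. It had 18.2, 16.6 and 13.04 CPM in Dicer WT and 4.68, 4.88 and 6.84 CPM in Dicer KO oocytes. No groups overlapped, and the order from lowest to highest was Dicer KO, Dicer WT, Ago2 fl/fl, Ago2 null and Ago2 ADH. The log2 fold change was 1.08 (SE 0.06) in Ago2 ADH and 0.80 (SE 0.08) in Ago2 null, against -1.53 (SE 0.17) in Dicer KO oocytes. The effects differed by 2.56 (SE 0.17) for Ago2 ADH and by 2.30 (SE 0.18) for Ago2 null.

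**Figure D1:**
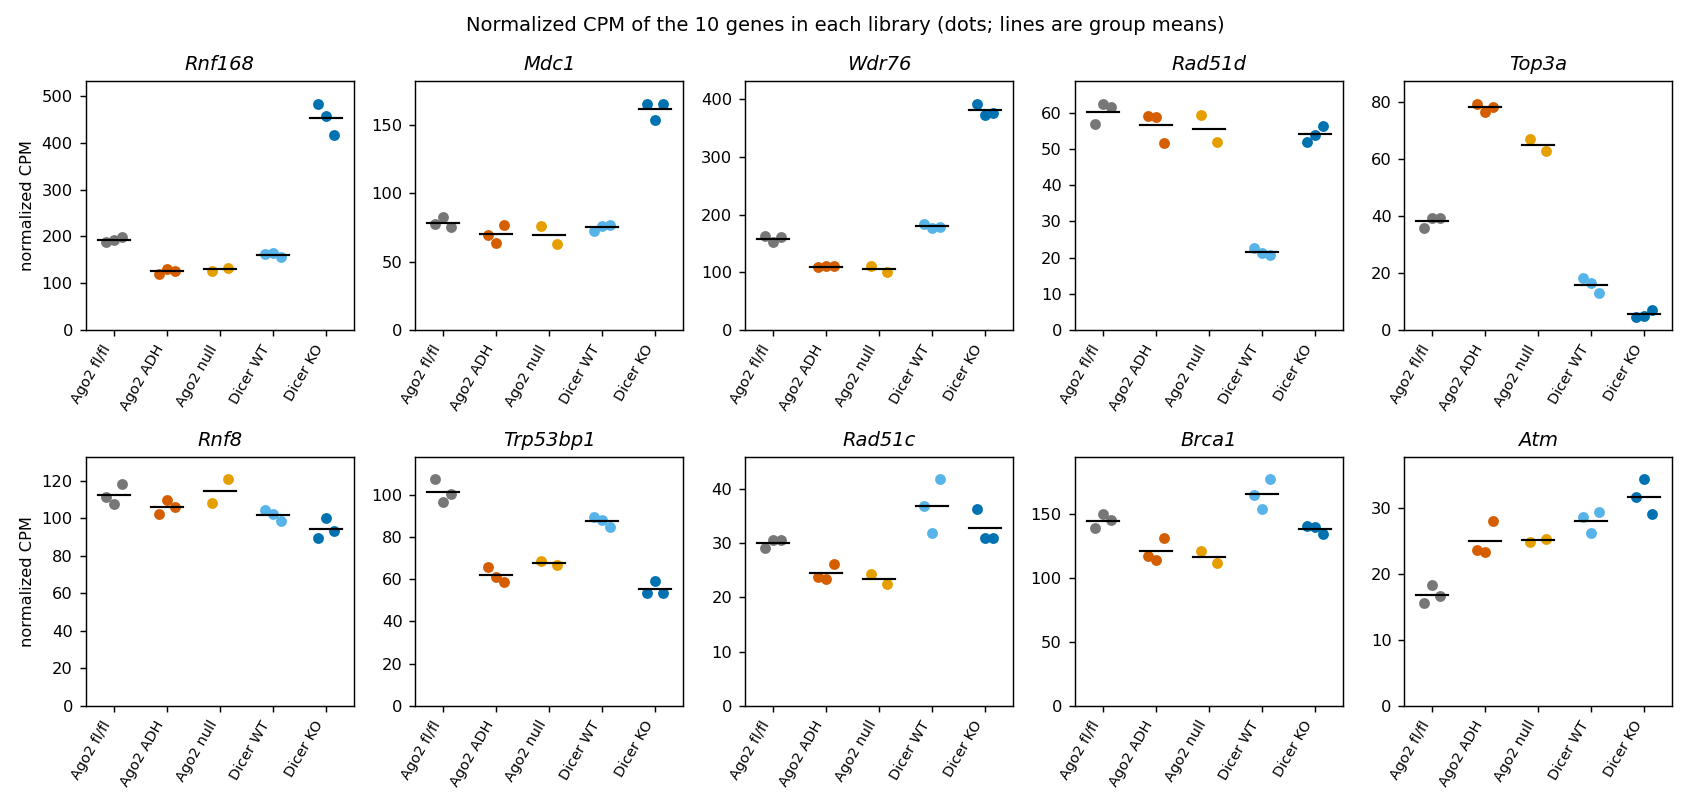
Normalized CPM (vertical axes, each from 0 and with its own scale) of the 10 genes in each library, by group; dots are libraries and lines are group means. Rnf168, Mdc1 and Wdr76 are highest in the 3 Dicer KO libraries, Rad51d is lowest in Dicer WT, and Top3a ranges from 4.68 CPM in a Dicer KO library to 79.3 CPM in an Ago2 ADH library.

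Between the series, the mutants and the controls did not stand apart in the same genes. The ratio of the Ago2 fl/fl mean to the Dicer WT mean was 1.198 for Rnf168, 1.04 for Mdc1 and 0.883 for Wdr76, whereas the ratio of the Ago2 ADH mean to the Dicer KO mean was 0.279, 0.433 and 0.288. For these genes the controls were thus much closer than the mutants. For Rad51d the controls differed 2.80-fold and the mutants only 1.05-fold. For Top3a the controls already differed 2.39-fold, and the Ago2 ADH mean was 14.3-fold the Dicer KO mean. The series came from different crosses and lanes and stood apart in the summed oocyte markers, whose part in these ratios was not tested, so the ratios are descriptions.

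**Figure D2:**
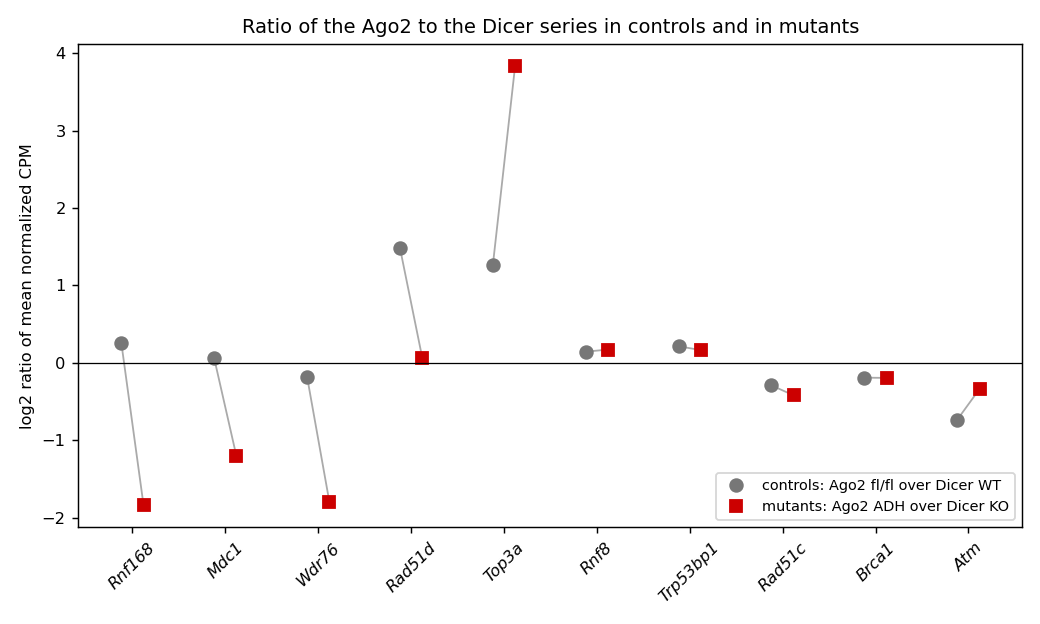
Log2 ratio of the mean normalized CPM of the Ago2 series to that of the Dicer series (vertical axis) for each gene, between the controls (grey circles, Ago2 fl/fl over Dicer WT) and between the mutants (red squares, Ago2 ADH over Dicer KO). The mutants lie below the controls for Rnf168, Mdc1, Wdr76 and Rad51d and above them for Top3a, where the log2 ratio goes from 1.26 to 3.83; for Rad51d it goes from 1.48 to 0.07.

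The 5 genes not chosen for a difference were then tested with edgeR's quasi-likelihood test at a false discovery rate (FDR) of 1%, adjusted over all transcripts. In Ago2 ADH oocytes, 1 of them rose and 2 fell, where 21.0% of 13979 genes rose and 19.9% fell. In Ago2 null oocytes 1 rose and 3 fell, where 18.6% of 14302 genes rose and 18.7% fell. In Dicer KO oocytes none rose and 2 fell, where 16.9% of 13799 genes rose and 17.6% fell; DESeq2 made 2 calls there too, and the genes not called had unadjusted p-values of 0.120 (Rnf8), 0.137 (Rad51c) and 0.0748 (Atm). With 5 genes, these counts are no more than a description of the genes that follow.

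Trp53bp1, whose product protects broken ends from resection, fell in all 3 mutants. Its level was 107, 96.5 and 100.5 CPM in Ago2 fl/fl, 65.9, 61.0 and 58.4 CPM in Ago2 ADH and 68.8 and 66.9 CPM in Ago2 null oocytes. It was 89.6, 88.2 and 84.7 CPM in Dicer WT and 53.2, 59.0 and 53.4 CPM in Dicer KO oocytes. Every mutant library lay below every control library. The log2 fold change was -0.67 (SE 0.06, adjusted p = 3.58e-08) in Ago2 ADH, -0.54 (SE 0.07, adjusted p = 5.14e-06) in Ago2 null and -0.66 (SE 0.07, adjusted p = 3.89e-07) in Dicer KO oocytes. Tubgcp4, with which it shares sequence, had higher values in the mutants (log2 fold changes of 0.66, 0.83 and 0.56). The effects on Trp53bp1 in Ago2 ADH and Dicer KO oocytes differed by -0.06 (95% interval -0.24 to 0.12, adjusted p = 0.755).

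Brca1, which promotes homologous recombination and opposes 53BP1, fell less. It had 139, 150.1 and 146 CPM in Ago2 fl/fl, 117, 115 and 132 CPM in Ago2 ADH and 121 and 112 CPM in Ago2 null oocytes. It had 165, 154 and 178 CPM in Dicer WT and 141, 140.4 and 135 CPM in Dicer KO oocytes. No mutant library overlapped its own controls, although the Dicer KO range overlapped that of Ago2 fl/fl. The log2 fold changes were -0.21 (SE 0.06, adjusted p = 0.00655) in Ago2 ADH, -0.27 (SE 0.06, adjusted p = 0.00187) in Ago2 null and -0.25 (SE 0.07, adjusted p = 0.00396) in Dicer KO oocytes. Each of these calls was lost without some single libraries, which are listed with the limits at the end.

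Atm, the kinase at the head of the cascade, rose with Ago2 loss. It had 15.5, 18.3 and 16.7 CPM in Ago2 fl/fl, 23.6, 23.3 and 28.0 CPM in Ago2 ADH and 24.9 and 25.2 CPM in Ago2 null oocytes. It had 28.5, 26.2 and 29.3 CPM in Dicer WT and 31.6, 34.3 and 29.0 CPM in Dicer KO oocytes. Both Ago2 mutants lay above Ago2 fl/fl and overlapped each other, while the Dicer groups overlapped each other, with means above those of the 3 Ago2 groups. Atm had a log2 fold change of 0.62 (SE 0.10, adjusted p = 3.35e-05) in Ago2 ADH, 0.61 (SE 0.10, adjusted p = 7.04e-05) in Ago2 null and 0.18 (SE 0.09, adjusted p = 0.132) in Dicer KO oocytes. Its Ago2 ADH effect exceeded its Dicer KO effect by 0.39 (95% interval 0.12 to 0.66, adjusted p = 0.0819) and its Ago2 null effect did so by 0.40 (95% interval 0.14 to 0.67, adjusted p = 0.0770), so neither was called.

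Rad51c, the subunit shared by the BCDX2 and CX3 complexes, had 29.1, 30.5 and 30.5 CPM in Ago2 fl/fl, 23.7, 23.4 and 26.2 CPM in Ago2 ADH and 24.3 and 22.5 CPM in Ago2 null oocytes. In the Dicer series it had 36.8, 31.8 and 41.8 CPM in WT and 36.4, 31.0 and 30.9 CPM in KO oocytes. The Ago2 mutants lay below their controls and the Dicer groups overlapped. It fell in Ago2 null oocytes by 0.32 on the log2 scale (SE 0.09, adjusted p = 0.00518), whereas the values of -0.25 in Ago2 ADH (SE 0.08, adjusted p = 0.0124) and -0.16 in Dicer KO oocytes (SE 0.10, adjusted p = 0.218) were not called. The Ago2 ADH value was called with DESeq2, with library totals, with no filter on low counts and without Ago2 ADH replicate 3.

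Rnf8, the ligase between MDC1 and RNF168, had 112, 108 and 119 CPM in Ago2 fl/fl, 102, 110.1 and 106 CPM in Ago2 ADH and 108 and 121 CPM in Ago2 null oocytes. It had 105, 103 and 98.8 CPM in Dicer WT and 89.7, 100.05 and 93.4 CPM in Dicer KO oocytes. Neighbouring groups overlapped throughout. The log2 fold change was -0.04 (95% interval -0.15 to 0.07) in Ago2 ADH, 0.06 (-0.07 to 0.20) in Ago2 null and -0.11 (-0.24 to 0.02) in Dicer KO oocytes, with adjusted p-values of 0.594, 0.462 and 0.196. The interval of the Dicer KO value thus reached no further than -0.24, in a gene whose upstream partner Mdc1 and downstream partner Rnf168 were 1.11 and 1.49 higher in Dicer KO oocytes.

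**Figure D3:**
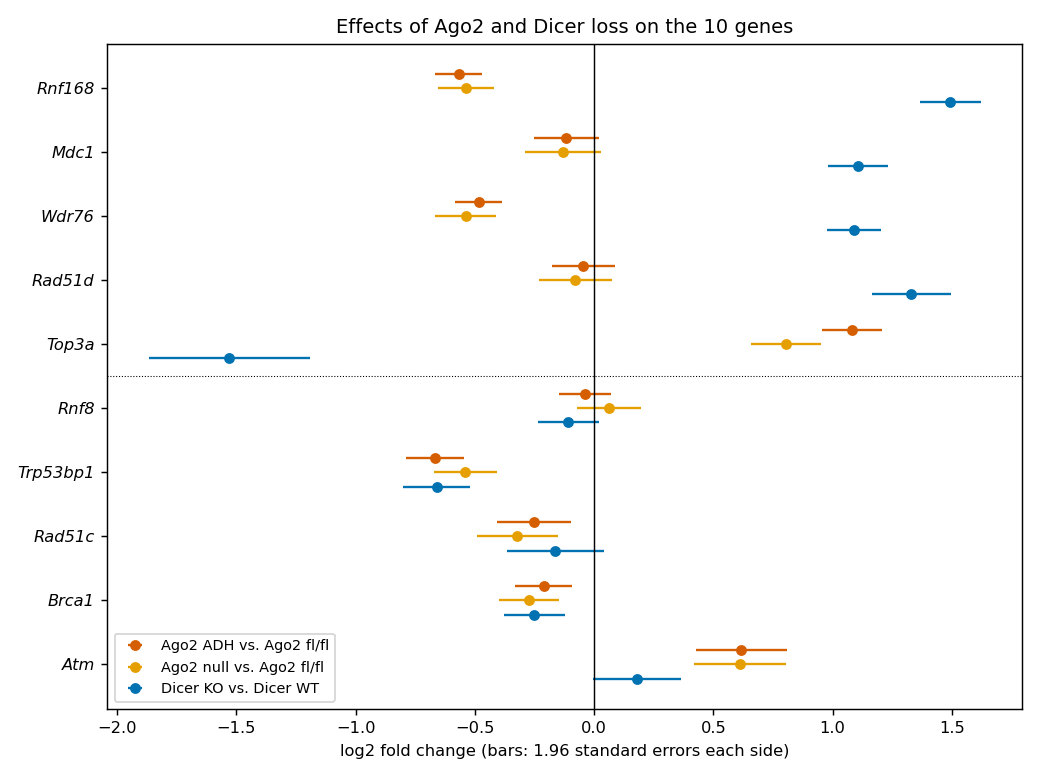
Log2 fold change (horizontal axis) of each gene in Ago2 ADH and Ago2 null oocytes against Ago2 fl/fl and in Dicer KO against Dicer WT oocytes; bars are 95% intervals, and the dotted line separates the 5 genes chosen for a difference (above) from the other 5. Trp53bp1 lies between -0.67 and -0.54 in all 3 mutants, while Rnf168 lies at -0.57, -0.54 and 1.49.

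The difference of effects itself was tested for these 5 genes across all transcripts. None was called, where 3.74% of 14530 genes were called for the Ago2 ADH effect against the Dicer KO effect, and 3.09% of 14834 genes for the Ago2 null effect against the Dicer KO effect. Of the 5, Atm had an unadjusted p below 0.05 in both, where 4550 of 19500 and 4430 of 19889 transcripts did. DESeq2 called none of the 5.

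The comparison of Ago2 ADH with Ago2 null oocytes was not used to choose any gene and was tested for all 10. None was called by edgeR or by DESeq2, where 0.118% of 14364 genes were called. With edgeR, 1 of the 10 had an unadjusted p below 0.05, where 1931 of 19306 transcripts did. That gene was Top3a, which was 0.26 higher in Ago2 ADH than in Ago2 null oocytes on the log2 scale (SE 0.07, adjusted p = 0.190), with no overlap between the groups. For Rnf168 the difference was -0.05 (95% interval -0.18 to 0.08), for Mdc1 -0.0034 (-0.19 to 0.18), for Wdr76 0.04 (-0.10 to 0.17) and for Rad51d 0.01 (-0.15 to 0.18). The comparison rests on 3 and 2 libraries and on different lanes.

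Compared per kilobase of transcript, the genes differed widely in level. Over all libraries Rnf168 had 49.0 and Wdr76 46.2 CPM per kb. These were higher than 90.7% and 90.2% of the 13734 genes with a known length and a mean of at least 10 raw counts. Brca1 (21.1), Rnf8 (19.5), Rad51d (14.4), Mdc1 (12.6) and Top3a (10.3) followed, then Trp53bp1 (7.82) and Rad51c (7.59) CPM per kb. Atm was lowest at 2.59 CPM per kb, below the median of 3.88 CPM per kb over those 13734 genes. In Dicer KO oocytes Rnf168 reached 101 CPM per kb and Top3a dropped to 1.46 CPM per kb, so that Top3a went from 20.8 CPM per kb in Ago2 ADH oocytes, above Rnf8 at 19.6, to the lowest of the 10 genes in Dicer KO.

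The pattern over the 14 libraries, taken as log2 CPM less the mean of the control group of the same series, was compared among 10348 genes whose raw counts averaged 100 or more. The gene most like Rnf168 was Wdr76, and the gene most like Wdr76 was Rnf168 (Pearson r = 0.993). The gene most like Mdc1 was Nol10 (r = 0.989), with a log2 fold change of 1.62 in Dicer KO and -0.27 in Ago2 ADH oocytes. The gene most like Top3a was Gdpd3 (r = 0.961), which had 1.28 in Ago2 ADH, 1.49 in Ago2 null and -1.78 in Dicer KO oocytes on the log2 scale. For Rad51d it was Gm4631 (r = 0.990), which is at 0 counts in all Ago2 libraries and had 10.6 CPM in Dicer WT and 30.7 CPM in Dicer KO oocytes. Among the chosen genes, Rnf168 had r = 0.961 with Mdc1, 0.951 with Rad51d and -0.980 with Top3a. These values describe 14 libraries that share 5 genotypes, and the group differences that chose the genes enter each r.

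Some direct partners of the 10 genes were called and others were not. H2ax, the histone variant that ATM marks and MDC1 binds, rose in Ago2 ADH (0.61, adjusted p = 2.55e-07), Ago2 null (0.47, adjusted p = 4.53e-05) and Dicer KO oocytes (0.91, adjusted p = 7.27e-08) on the log2 scale, from means of 38.02 and 30.6 CPM in Ago2 fl/fl and Dicer WT to 56.1, 51.2 and 57.3 CPM. Ube2n, the ubiquitin-conjugating enzyme of RNF8, rose in Dicer KO oocytes (0.39, adjusted p = 0.000278) and was not called in the Ago2 mutants, with differences of effects that were not called (adjusted p = 0.0741 and 0.0233). Rnf169 and Uimc1, which bind the ubiquitin mark, were not called in any comparison.

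Of the partners of Top3a, only Rmi2 was called in the differences of effects. Rmi2 had 19.1 ± 2.58 CPM (SD, n = 3) in Ago2 fl/fl oocytes. It had 11.0 ± 0.354 CPM (SD, n = 3) in Ago2 ADH oocytes and 10.8 ± 1.74 CPM (SD, n = 2) without any Ago2 allele. It had 15.9 ± 1.42 (SD, n = 3) CPM in Dicer WT and 17.9 ± 3.02 (SD, n = 3) in Dicer KO oocytes. It therefore fell in the Ago2 mutants, by 0.75 (adjusted p = 8.18e-06) and 0.79 (adjusted p = 9.88e-05), whereas the Dicer groups overlapped (0.18, adjusted p = 0.272). The differences of its effects, -0.98 (SE 0.17, adjusted p = 0.000861) and -1.003 (SE 0.20, adjusted p = 0.00323), were called and opposite in sign to those of Top3a. Blm fell in Ago2 ADH and Ago2 null oocytes (-0.29, adjusted p = 0.00106, and -0.28, adjusted p = 0.00296) and had -0.23 in Dicer KO (adjusted p = 0.0264), and Rmi1 and the related topoisomerase gene Top3b were not called in any comparison.

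Of the genes acting with Rad51d, Rad51b encodes another member of the BCDX2 complex. Rad51b ranged from 10.9 to 14.2 CPM in Ago2 fl/fl, from 10.9 to 13.4 CPM in Ago2 ADH and from 16.0 to 16.4 CPM in Ago2 null oocytes. It ranged from 25.7 to 26.9 CPM in Dicer WT and from 13.7 to 16.3 CPM in Dicer KO oocytes. It fell in Dicer KO oocytes (-0.78, adjusted p = 6.95e-06) and its values in Ago2 ADH (-0.02, adjusted p = 0.925) and Ago2 null oocytes (0.39, adjusted p = 0.0106) were not called. The differences of effects were called, 0.72 (SE 0.16, adjusted p = 0.00581) and 1.14 (SE 0.16, adjusted p = 9.71e-05), and opposite in sign to those of Rad51d. In the controls, too, the order was opposite, since Rad51b was higher and Rad51d lower in Dicer WT than in Ago2 fl/fl oocytes. Xrcc3, the partner of RAD51C in the CX3 complex, fell in Ago2 ADH (-0.35, adjusted p = 0.000364) and Ago2 null oocytes (-0.56, adjusted p = 4.15e-05) and had -0.07 in Dicer KO (adjusted p = 0.496). The differences of effects on Xrcc3 were not called (adjusted p = 0.062 and 0.0108), and Xrcc2 was not called in any comparison.

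Of the partners of WDR76, Hells fell in all 3 mutants (-0.67, adjusted p = 4.70e-07; -0.51, adjusted p = 0.000169; and -0.45, adjusted p = 0.000439). Cul4a rose in Ago2 ADH (0.54, adjusted p = 4.41e-07) and Ago2 null oocytes (0.63, adjusted p = 7.54e-07) and had 0.18 in Dicer KO (adjusted p = 0.0618), and Cul4b and Ddb1 were not called. Brca2, which acts in homologous recombination, fell in Ago2 ADH (-0.28, adjusted p = 6.43e-05) and Ago2 null oocytes (-0.41, adjusted p = 1.25e-05) and had -0.16 in Dicer KO (adjusted p = 0.0463). The differences of effects were not called for Cul4a (adjusted p = 0.0612 and 0.0214) or Brca2 (adjusted p = 0.223 and 0.0621). Bard1, the partner of BRCA1, and Chek2, a kinase activated by ATM, rose in Ago2 null oocytes (0.54, adjusted p = 0.000376, and 0.94, adjusted p = 0.00323), and were not called in the other comparisons. Chek2 was low, at group means of 1.51 to 3.21 CPM. Palb2, Mre11a, Rad50 and Nbn were not called in any comparison.

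The wider DNA damage response was taken from lists of genes for chromatin ubiquitin signalling, checkpoints, homologous recombination, topoisomerases, the CUL4-DDB1 ligase, the Fanconi anaemia pathway, end joining and excision and mismatch repair, which held 191 genes with the members. Without the 5 chosen genes, 182 were tested in Ago2 ADH oocytes, of which 30 (16.5%) rose, 46 (25.3%) fell and 106 were not called, with a median log2 fold change of -0.05 against 0.01 over all genes. In Ago2 null oocytes 31 rose and 41 fell of 182, with a median of -0.05 against 0.01. In Dicer KO oocytes 24 (13.3%) rose and 37 (20.4%) fell of 181, with a median of -0.04 against 0.00040 over all genes. In each of these comparisons the share that rose was below, and the share that fell above, that over all genes given earlier, and this difference was not tested. Between Ago2 ADH and Ago2 null oocytes none of 188 was called by edgeR or DESeq2. With edgeR, 24 of the 188 had an unadjusted p below 0.05, where 1931 of 19306 transcripts did.

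Over all genes, 40.9% were called in either direction in Ago2 ADH, 37.3% in Ago2 null and 34.5% in Dicer KO oocytes. Of 36 homologous recombination genes tested beside Rad51d and Top3a, 3 rose and 13 fell in Ago2 ADH, 5 rose and 12 fell in Ago2 null, and 6 rose and 9 fell in Dicer KO oocytes. Of 24 ubiquitin signalling genes tested beside Rnf168 and Mdc1, 2 rose and 8 fell in Ago2 ADH, 3 rose and 9 fell in Ago2 null, and 2 rose and 8 fell in Dicer KO oocytes. No topoisomerase or dissolvasome gene beside Top3a rose in any of the 3 mutants, and 4 of 10 fell in Ago2 ADH, 4 of 10 in Ago2 null and 3 of 9 in Dicer KO oocytes. Of 36 damage sensing and checkpoint genes, Atm among them, 10 rose and 7 fell in Ago2 ADH oocytes, 11 rose and 5 fell in Ago2 null oocytes, and of 37 in Dicer KO oocytes 7 rose and 6 fell. Of 20 Fanconi anaemia genes, 9 fell and 3 rose in Ago2 ADH, 7 fell and 2 rose in Ago2 null, and 4 fell and 3 rose in Dicer KO oocytes. Of 14 genes of the CUL4-DDB1 ligase and WDR76 partners beside Wdr76, 4 rose and 4 fell in Ago2 ADH, 5 rose and 3 fell in Ago2 null, and 1 rose and 3 fell in Dicer KO oocytes. Of 13 end joining genes, 2 rose and 2 fell in Ago2 ADH, 1 rose and 2 fell in Ago2 null, and 2 rose and 3 fell in Dicer KO oocytes. Of base excision and mismatch repair genes, 4 rose and 2 fell of 23 in each Ago2 mutant, and 3 rose and 1 fell of 22 in Dicer KO oocytes. Of 19 nucleotide excision repair genes, 3 rose and 1 fell in Ago2 ADH, 2 rose and 2 fell in Ago2 null, and 1 rose and 1 fell in Dicer KO oocytes.

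**Figure D4:**
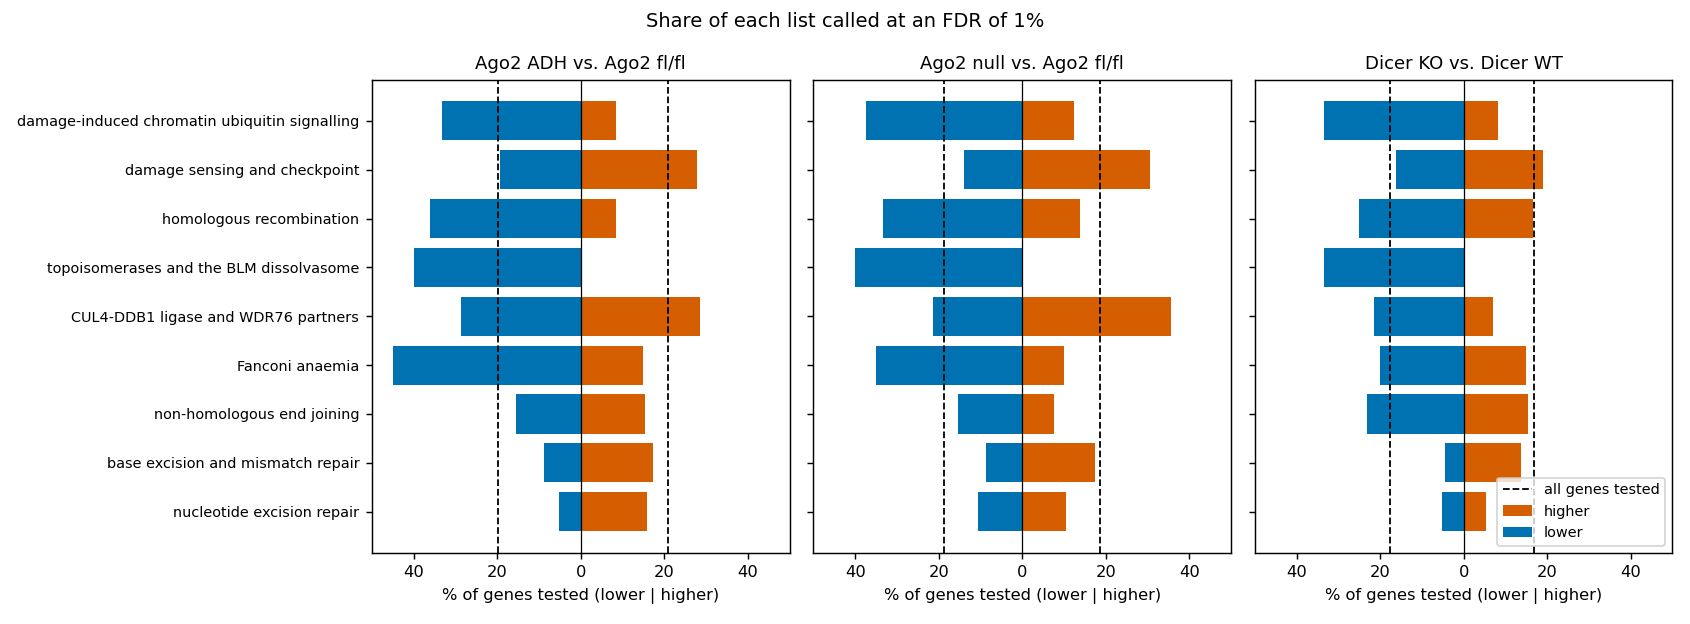
Percent of the genes tested in each list that were higher (orange, to the right) or lower (blue, to the left) at an FDR of 1% in each comparison, without the 5 chosen genes; dashed lines mark the percent over all genes tested. In Ago2 ADH oocytes 36.1% of the homologous recombination genes were lower and 8.33% higher, and no topoisomerase or dissolvasome gene was higher.

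Among called list genes whose raw counts averaged 100 or more, the same 3 genes rose most, and the same 3 fell most, with loss of AGO2 cleavage and with loss of DICER. Exo1, the exonuclease that resects broken ends, had 125 ± 2.86 CPM (SD, n = 3) in Ago2 fl/fl oocytes, against 535 ± 10.9 CPM (SD, n = 3) with the ADH allele and 513 ± 9.38 CPM (SD, n = 2) in the null, and rose from 102 ± 3.91 to 511 ± 16.7 CPM (SD, n = 3 each) in the Dicer series. Its log2 fold changes were 2.15 (adjusted p = 1.84e-17), 2.08 (adjusted p = 1.14e-14) and 2.34 (adjusted p = 8.57e-16). Neil3, a DNA glycosylase, rose by 1.58, 1.57 and 1.90, and reached between 1089 and 1110 CPM in the Dicer KO libraries. Xrcc4, the scaffold of the end-joining ligase, rose by 1.62, 1.71 and 1.63, whereas Lig4, the ligase that XRCC4 holds, fell by 1.41, 1.71 and 1.75 on the log2 scale. Fignl1, which also acts in homologous recombination, fell by 1.23, 1.34 and 1.36, and Swsap1, a gene of the same list, fell by 0.88, 1.49 and 1.27 from low means of 5.75 and 4.70 CPM in the controls. The adjusted p-values of these 5 genes were at most 0.00053 in each of the 3 comparisons.

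In the difference of the Ago2 ADH and Dicer KO effects, 8 of 183 list genes without the 5 chosen ones were called (1 higher, 7 lower, 4.37%), and 5 of 183 in that of the Ago2 null and Dicer KO effects (1 higher, 4 lower, 2.73%), against 3.74% and 3.09% of all genes. All 8 were outside the 10 members, and 2 of them, Rmi2 and Rpa1, had Ago2 ADH and Dicer KO effects of opposite sign. Of all genes tested, 1.55% were called with effects of opposite sign. Rpa1, a subunit of the single-strand binding protein RPA, had 61.9, 61.7 and 65.2 CPM in Ago2 fl/fl and 56.1, 59.0 and 53.4 CPM in Ago2 ADH oocytes, against 39.0, 44.3 and 48.4 CPM in Dicer WT and 60.8, 65.4 and 62.2 CPM in Dicer KO oocytes. Its effects were -0.12 in Ago2 ADH (adjusted p = 0.122) and 0.52 in Dicer KO oocytes (adjusted p = 5.03e-05), with a difference of -0.69 (SE 0.10, adjusted p = 0.00014). In Ago2 null oocytes the effect on Rpa1 was 0.09 (adjusted p = 0.328), of the same sign as in Dicer KO oocytes. The other genes called were Gen1, Dclre1c, Ppm1d, Rad1, Neil3 and Rad51b, which were named after their values were seen, apart from Neil3 and Rad51b. Gen1, a nuclease that cuts Holliday junctions, had the largest of the negative differences among those 6, -0.94 (SE 0.15, adjusted p = 0.000416), with 20.8 CPM in Ago2 fl/fl, 20.5 CPM in Ago2 ADH, 27.6 CPM in Dicer WT and 51.7 CPM in Dicer KO oocytes.

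**Figure D5:**
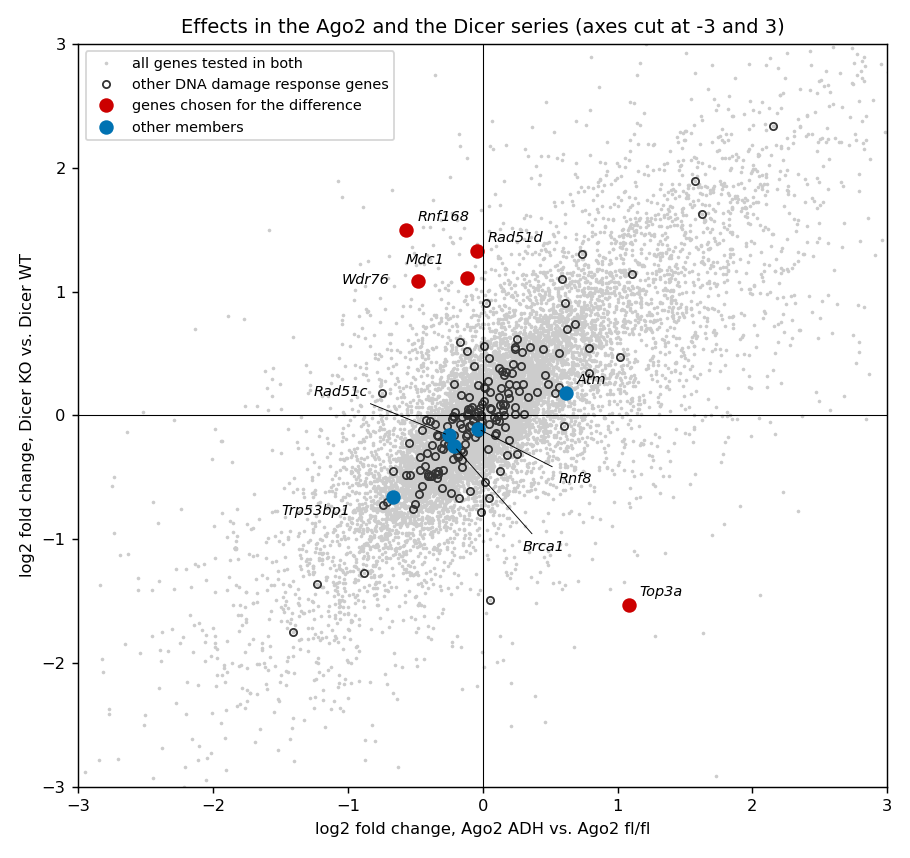
Log2 fold change in Ago2 ADH oocytes (horizontal axis) against that in Dicer KO oocytes (vertical axis) for all genes tested in both (grey), list genes that are no members (open circles), the 5 chosen genes (red) and the other 5 (blue), on axes of equal range beyond which genes are not drawn. Rnf168, Mdc1, Wdr76 and Rad51d lie above 1 on the vertical axis and below 0 on the horizontal axis, and Top3a lies at 1.08 and -1.53, while Trp53bp1 lies at -0.67 and -0.66.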

How the data were processed

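The values that the authors deposited were raw read counts per RefSeq transcript for 14 libraries of amplified oocyte cDNA, aligned to mm10 and counted with HTSeq in its intersection-strict mode without strand. Per the submitters' processing notes the tools were TopHat2 2.0.7, HTSeq 0.6.1 and DESeq 1.10.0. The alignment settings in the paper differ between read lengths, so the libraries may not all have been aligned alike. Rows for records with several alignments or outside transcripts stayed out of library sizes. Of 26495 transcripts, 26081 were matched to RefSeq symbols, 113 through GENCODE only, and 301 had none. The transcript with the highest mean count stood for a gene.

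For each comparison only the libraries of its groups entered the fit, with edgeR 4.0.16 in R 4.3.3: filterByExpr (minimum count 10, minimum total 15), TMM normalization, the quasi-likelihood test and Benjamini-Hochberg adjustment over all transcripts at an FDR of 1%. Differences of effects were contrasts of 4 group means. The SE is the absolute log2 fold change divided by the square root of F, and 95% intervals use the normal quantile. Levels are TMM-scaled CPM over all 14 libraries. The script was tested on simulated data. The floor of 3 counts covers counting error only, since amplified reads are not independent molecules. Libraries held 29380403 to 58285057 counts.

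Members and lists were chosen with earlier results of these data known. Besides the members, the genes named were their direct partners, the 3 largest increases and decreases among called list genes (mean 100 raw counts or more, groups not overlapping) in Ago2 ADH and in Dicer KO, list genes called in the difference of these effects with opposite signs, the gene most like each chosen gene, Ago2 and Dicer1. Nhej1 was not matched. The values of 1 partner gene are not reported here. Alternatives were DESeq2 1.42.0, RLE factors, library totals, no filter, an FDR of 5%, 1 transcript per gene, all 5 groups in a fit, each replicate left out and the replicate number as a block. Promoters came from RefSeq (GRCm38.p6) for 8 of 10 members, with Rad51d and Top3a not among them. No replicate pair agreed within sampling noise (chi-square per degree of freedom 6.35 to 14.3). Tables and figures were made with Python 3.11.15, pandas 2.3.3, numpy 2.4.6 and matplotlib 3.10.9.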

Additional observations from a re-analysis of the deposited data

Results flagged for a closer look

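Beside the chosen genes, 8 of 183 list genes (4.37%) had Ago2 ADH and Dicer KO effects that differed by the test of the difference. The share over all genes was 3.74%. For the Ago2 null and Dicer KO effects, 5 of 183 (2.73%) were called, against 3.09% of all genes. For Rmi2 the difference was -0.98 for the Ago2 ADH effect minus the Dicer KO effect and -1.003 for the Ago2 null effect minus the Dicer KO effect. For Rad51b the differences were 0.72 and 1.14. For Rpa1 the difference was -0.69 for Ago2 ADH, and that for Ago2 null, -0.47, had an adjusted p of 0.0162 and was not called. For Neil3, which rose in all 3 mutants, the differences were -0.37 (adjusted p = 0.00249) and -0.36 (adjusted p = 0.00891), a larger rise with Dicer loss. For Gen1 the differences were -0.94 and -1.15 (adjusted p = 0.000416 and 0.00014), and for Dclre1c -0.42 and -0.52 (adjusted p = 0.0089 and 0.00504). For Ppm1d and Rad1 only the Ago2 ADH differences were called, at -0.60 (adjusted p = 0.00123) and -0.62 (adjusted p = 0.00959).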

How the results depend on the processing

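Of 930 member values under the alternatives, 894 kept their sign and their side of the threshold, or moved by less than the spread between replicates. Some alternatives could change little, since an FDR of 5% leaves fold changes as they are and each member had only 1 transcript. The values also cover the 5 genes chosen for their effects. With single replicates left out, the log2 fold change of Rad51d ranged from -0.0954 to 0.0034 in Ago2 ADH and from -0.17 to 0.0086 in Ago2 null, and its sign turned without Ago2 ADH replicate 3 and without Ago2 null replicate 2. The Brca1 call was lost in Ago2 ADH without Ago2 fl/fl replicate 2 or 3 or Ago2 ADH replicate 1 or 2 (log2 fold change down to -0.17), in Ago2 null without Ago2 fl/fl replicate 2 or 3 or Ago2 null replicate 2 (to -0.22), and in Dicer KO without Dicer WT replicate 1 or 3 or Dicer KO replicate 2 or 3 (to -0.20). The Rad51c call in Ago2 null was lost without Ago2 fl/fl replicate 2 or 3 or Ago2 null replicate 2. In these fits the cause was not tested, but fewer libraries were used. The 8 list genes called in the Ago2 ADH and Dicer KO difference became 4 to 7 with single replicates left out (4 without Ago2 fl/fl replicate 2 or Dicer WT replicate 2) and 14 at an FDR of 5%. The 5 of the Ago2 null and Dicer KO difference became 9 with DESeq2, 3 with library totals (1 higher, 2 lower), 10 with no filter, 14 at an FDR of 5% and 2 to 10 with single replicates left out (2 without Dicer WT replicate 2, 10 without Dicer KO replicate 3); the cause was not tested. The replicate numbers did not pair the samples, as deviations of same-numbered libraries correlated between -0.107 and 0.057. With the number as a replicate block those counts were 5 and 3, the list calls were 75, 50 and 54 in Ago2 ADH, Ago2 null and Dicer KO oocytes, and Brca1 was lost in Ago2 null and Dicer KO and Rad51c in Ago2 null. The precision is limited by the number of libraries, 2 in Ago2 null, and for genes of few counts by depth.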
